A study of Mus musculus with 2 samples.

Results

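Cell cycle and mitosis genes are the cyclins, the cyclin-dependent kinases and their inhibitors, the E2F transcription factors, the CDC and MCM genes, the centromere proteins, the Aurora, Bub and Polo-like kinases, and the proliferation markers Mki67 and Top2a. They were chosen by gene symbol from the rows of the main probe category that carry 1 symbol, and the rows of each symbol were averaged. No measured value enters the rule, but earlier results of these data were known when the genes were chosen. Cdkn1a, a target of p53, was left out. The choice gave 82 genes on 85 rows, of 19049 genes with 1 symbol on 20046 rows. Ccnb1, Ccnd2, Cdk2, E2f3, Mcm2, Mcm4, Cenpa and Cenpf are not among the 82 genes, and their values are not given here.

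Gene expression was measured in lungs of male C57BL/6 mice, an inbred strain prone to lung fibrosis after chest irradiation. In the irradiated group the chest had received gamma rays in 1 dose at 7 weeks of age, delivered at 0.81 Gy/min, and the lungs were taken after 25 weeks, when fibrosis had been assessed by staining of tissue and by a blot for alpha-smooth muscle actin. The negative control group was nonirradiated and is labelled with the same 25 weeks. The total dose and the number of mice behind an array are not given in the sources used here. A single array represents each group (1 nonirradiated, 1 irradiated), made from 300 ng of total lung RNA. Differences therefore have neither a replicate error nor a test and are descriptions of 2 arrays, a number that limits their precision.

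Cells copy their DNA and divide under the control of cyclins, whose levels rise and fall and which switch on the cyclin-dependent kinases. D and E cyclins carry a cell toward DNA synthesis, E2F factors turn on the genes for that synthesis, the MCM helicase opens the DNA, and A and B cyclins with Cdk1 and the Aurora and Polo-like kinases drive mitosis. In adult lung most cells are at rest, and dividing cells are a small part of the tissue. Irradiation stops division through p53 and CDK inhibitors. In whole tissue, fewer dividing cells and less of a transcript in each cell cannot be told apart.

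None of the 82 genes differed by 1.5-fold between the arrays, in either direction. Among all 19049 genes, 2.07% were at least 1.5-fold higher and 1.2% at least 1.5-fold lower in the irradiated array. The 82 differences, irradiated minus nonirradiated on the log2 scale, ran from -0.47 for Cdk15 to 0.39 for Ccna2, with a median of -0.003, 40 genes higher and 42 lower. Over all genes the median was -0.02, and 45.1% were higher. The counts of genes higher in each class below stand beside that share. The SD of the 82 differences was 0.18, against 0.26 over all genes. For scale, rows of the same symbol differed among themselves with a pooled SD of 0.25 (1633 rows of 636 symbols). Of the 82 genes, 68 had a difference smaller than that. Over all genes, percentiles 15 and 87 of the differences were -0.25 and 0.25, so most genes lay within that range too. At a limit of 1.2-fold, 7 of the 82 were higher, where 11.8% of all genes were, and 7 were lower, where 13.9% of all genes were. Cdc42 is among the 7 lower only as an average of rows that part, as given below.

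**Figure D1:**
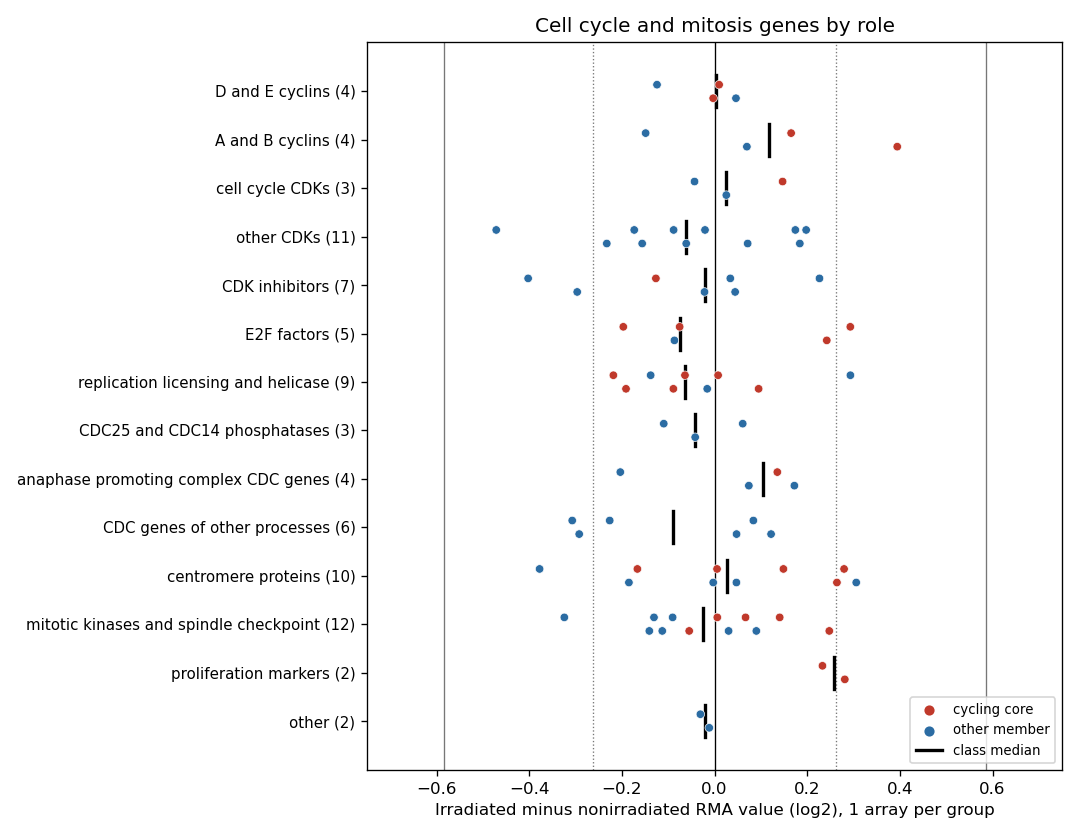
Difference of each of the 82 genes on the log2 scale (x axis, irradiated minus nonirradiated RMA value, 1 array per group), by role (y axis, number of genes in brackets). Points are genes, with the cycling core in red, black bars are class medians, dotted lines mark 1.2-fold and solid grey lines 1.5-fold. No point reaches a 1.5-fold line, and both proliferation markers lie to the right of 0.

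Brightness was used only to sort out dim transcripts. A gene is called dim where it lay below the median over genes in both arrays (7.29 nonirradiated, 7.27 irradiated), which held for 21 of the 82. Over all genes, the SD of the differences was 0.264 for the dim genes and 0.256 for the others, so dim differences were not smaller. With genes kept by their mean over both arrays, 60 of the 82 reached the median of that mean, and 30 of these were higher, while 39.4% of all genes so kept were higher. Control rows that lie in introns had a median value of 6.33 without and 6.58 after irradiation, and 6 genes lay at or below these medians in both arrays: Cdk15, Ccnb3, Ccnb1ip1, Cenph, Cenpi and Cenpp. Their differences are therefore differences between values near the background, taken here as the intron medians, Cdk15 with the largest difference of all included. Antigenomic background rows had lower medians, 4.77 nonirradiated and 4.59 irradiated, with a median difference of -0.21.

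**Figure D2:**
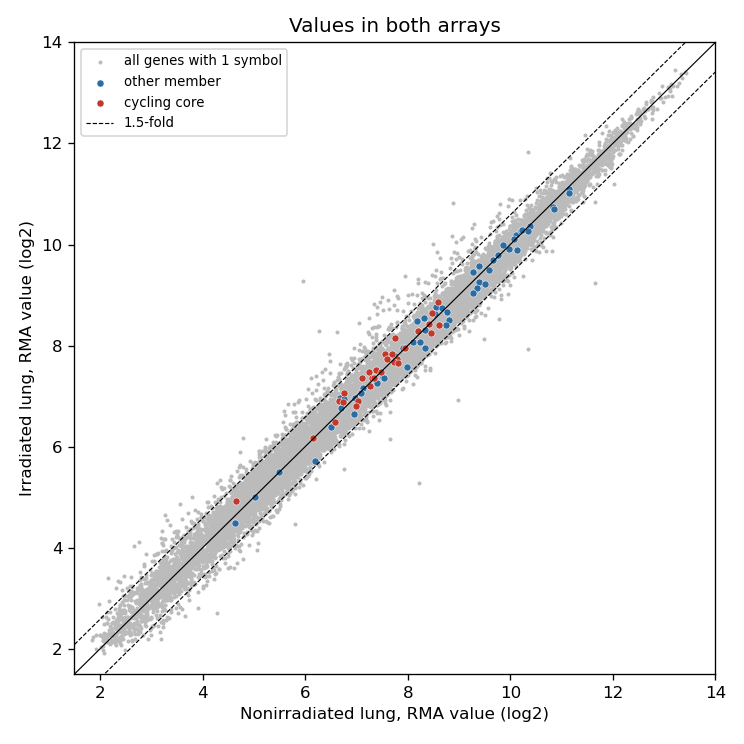
RMA value (log2) of each gene in the nonirradiated (x axis) and irradiated array (y axis), with all 19049 genes in grey, the cycling core in red and the other members in blue. Dashed lines mark 1.5-fold, and all 82 coloured points lie between them.

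A cycling core was listed apart, with earlier results of these data known. It is made of genes whose transcripts are known to be confined largely to dividing cells, and 29 of its 37 entries are among the 82 genes. Ccnb1, Mcm2, Mcm4, Cenpa and Cenpf are among the entries that are not. Of the 29 genes among the 82, 19 were higher and 10 lower in the irradiated array, where 45.1% of all genes were higher. Their median difference was 0.07. At 1.2-fold 5 were higher and none lower, where 11.8% and 13.9% of all genes were. The 53 members outside the core had a median of -0.03, with 21 higher, and at 1.2-fold 2 higher and 7 lower, Cdc42 included. Of the 19 core genes whose mean over both arrays reached the median of that mean, 13 were higher, with a median of 0.07. Of all genes so kept 39.4% were higher. Core genes that share a phase of the cycle are not independent of each other.

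Mki67 encodes the Ki-67 protein, the usual stain for dividing cells. It lies on chromosome 7 (135689788 to 135716379, minus strand, GRCm38) and read 8.59 without and 8.87 after irradiation, 1.22-fold higher. Top2a, the DNA topoisomerase that untangles chromosomes before division, read 7.24 and 7.48, a difference of 0.23. Both markers were thus higher in the irradiated lung by about as much as rows of 1 symbol differ from each other.

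Among the A and B cyclins, Ccna2 had the largest positive difference of all 82 genes. Cyclin A2 acts in DNA synthesis and at the entry into mitosis. Its gene on chromosome 3 (36564865 to 36572150, minus strand, GRCm38) read 7.75 nonirradiated and 8.14 irradiated, 1.31-fold higher. Ccnb2, a mitotic cyclin, read 8.48 and 8.65, a difference of 0.17. Ccna1, a cyclin of the germ line, differed by 0.07, and Ccnb3, a cyclin of meiosis, by -0.15 at values near the background. The cyclins of the earlier phase were nearly level: Ccnd1 read 11.15 and 11.03, Ccnd3 10.24 and 10.28, Ccne1 7.34 and 7.35, and Ccne2 7.49 and 7.48.

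The kinases that these cyclins bind differed little. Cdk1, the partner of the mitotic cyclins, read 7.69 nonirradiated and 7.84 irradiated, a difference of 0.15. Cdk4 and Cdk6, the partners of D cyclins, differed by -0.04 and 0.03. The other 11 kinases that carry the Cdk name act largely outside the cycle, in transcription or in differentiated cells. Of these, 4 were higher and 7 lower, with a median of -0.06. Cdk15, with the largest negative difference, read 6.18 and 5.71, near the background. Cdk18 differed by -0.23, while Cdk7, which activates other CDKs and takes part in transcription, differed by 0.20 and Cdk14 by 0.18.

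CDK inhibitors hold the cycle back, and several of them mark cells that have left it for good. Of 7 genes with the Cdkn name 3 were higher and 4 lower, with a median of -0.02. Cdkn2d, an inhibitor of Cdk4 and Cdk6, had the second largest negative difference of the 82 genes. Its gene on chromosome 9 (21288463 to 21291209, minus strand, GRCm38) read 7.99 nonirradiated and 7.58 irradiated, 1.32-fold lower. Cdkn2b, which TGF-beta is known to induce, read 8.80 and 8.50, 1.23-fold lower. Cdkn2a, the locus most used as a marker of senescent cells, read 7.08 and 7.06, below the median of genes in both arrays, and its single row cannot separate the inhibitor from the other protein of that locus. Cdkn1b and Cdkn1c, inhibitors of the other family, differed by 0.03 and 0.04. Cdkn3, a phosphatase that acts on CDKs and is made in dividing cells, differed by -0.13, and Cdkn2aip, which binds a product of the Cdkn2a locus, by 0.23. Cdkn1a, outside the 82 genes by the choice made, read 10.19 and 10.33, a difference of 0.14.

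Of the 5 E2F factors 2 were higher and 3 lower. The activators E2f1 and E2f2 differed by -0.20 and -0.08, E2f1 from 8.45 to 8.25. E2f4, which represses its targets in resting cells, differed by -0.09. The atypical repressors E2f7 and E2f8, which are made as cells pass through DNA synthesis, read 6.66 and 6.90, and 6.76 and 7.06, differences of 0.24 and 0.29. Both repressors were dim in both arrays.

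Of 9 genes of replication licensing and the helicase 3 were higher, where 45.1% of all genes were. Their median was -0.06, against -0.02 over all genes. Mcm7, Mcm3, Mcm5 and Mcm6 encode helicase subunits and differed by -0.22, -0.06, 0.10 and 0.01. Cdc45, which completes the active helicase, read 6.99 and 6.80, and Cdc6, which loads the helicase, 6.59 and 6.50, both dim. Cdc7, the kinase that fires the origins, had the largest positive difference of the class, from 6.68 to 6.97, or 1.23-fold, also dim. Mcm8 and Mcm9, a related pair that works in DNA repair, differed by -0.02 and -0.14.

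Of the 10 centromere proteins 6 were higher and 4 lower, with a median of 0.03. Cenpc1, which anchors the kinetochore to the centromere, read 8.18 nonirradiated and 8.48 irradiated, 1.24-fold higher. Cenpn and Cenph of the inner kinetochore differed by 0.26 and 0.28, the latter near the background, and Cenpe, a motor protein of the kinetochore, by 0.15. Cenpm of the inner kinetochore differed by -0.17. Cenpb, which binds centromeric repeats and is made in resting cells as well, read 8.34 and 7.96, a difference of -0.38. Cenpj, a protein of centriole assembly despite its name, differed by -0.18.

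Mitotic kinases and checkpoint genes differed little. Plk1, the main Polo-like kinase of mitosis, read 7.59 and 7.73, and Bub1, a kinase of the spindle checkpoint, 7.11 and 7.36. Aurkb, the Aurora kinase of the chromosomal passenger complex, read 7.94 and 7.95, Aurka differed by -0.05 and Bub1b by 0.07. Plk2, Plk3 and Plk5, which serve stress responses and resting cells, differed by -0.13, 0.09 and -0.14. Aurkaip1, which is a mitochondrial protein that binds Aurora A, read 8.74 and 8.42, 1.25-fold lower. In this class 6 of 12 genes were higher.

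The CDC names cover unrelated tasks. The anaphase-promoting complex marks cyclins and securin for destruction. Its activator Cdc20 differed by 0.14, and its subunits Cdc27 and Cdc16 by 0.07 and -0.20. Cdc20b, listed in the same class, read 6.76 and 6.94, a difference of 0.17, and was dim in both arrays. The phosphatases Cdc25a and Cdc25b, which switch on CDKs, differed by -0.04 and -0.11, and Cdc14b by 0.06. Among the 6 genes of other processes, Cdc37, a partner of the chaperone Hsp90, read 10.13 and 9.90, a difference of -0.23. Cdc40, a splicing factor, differed by 0.12. In that class 3 of 6 genes were higher. Ccnb1ip1, which acts in meiosis, and Mcm3ap, which acts in the export of RNA, share only a name with the cycle and differed by -0.01 and -0.03. Of the 82 genes, 3 rested on 2 rows each, and for Cdc42, a small GTPase of the cytoskeleton, the rows parted: the row on the minus strand of chromosome 4 (137319696 to 137357759, GRCm38) read 12.85 and 12.82, and a short row on the plus strand within it (137319697 to 137320196) 6.17 and 5.62. The averaged difference of -0.29 came mainly from the dim row, and Cdc42 counts among the 7 genes lower at 1.2-fold only through that row. The 2 rows of Cdc34, a ubiquitin-conjugating enzyme, lie on different chromosomes. The row on chromosome 10 read 9.19 and 8.91, lower by 0.27. The row on chromosome 11 read 4.72 and 4.38, lower by 0.34 at values near the background, and is not a second measurement at the same place.

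**Figure D3:**
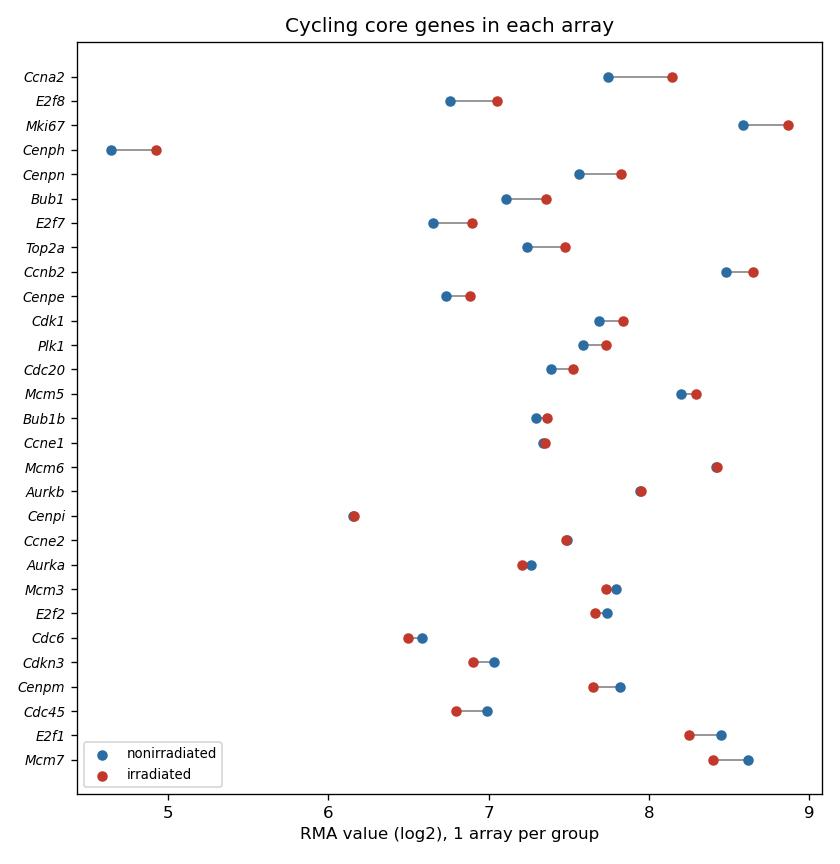
RMA values (log2, x axis) of the 29 cycling core genes (y axis, sorted by difference) in the nonirradiated (blue) and irradiated array (red). Ccna2, at the top, read 7.75 and 8.14, Mcm7, at the bottom, 8.62 and 8.40, and the 4 genes from Ccne1 down to Cenpi differed by 0.01.

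Promoters show what the genes of dividing cells have in common beyond their names. E2F factors bind sites in promoters of genes for DNA synthesis, and mitotic genes often pair CCAAT boxes with the cell cycle homology region, CHR, through which they are silent in resting cells. The 150 bases before the RefSeq start are shown (GRCm38.p6, gene strand, 5′ to 3′) for Cdk1, Plk1, Mki67 and Top2a, which carry CCAAT and CHR words, and for Mcm6 and Cdc6, which carry E2F words. Capitals mark CCAAT, the CHR words TTTGAA and TTTAAA, and the E2F words TTTCGCGC, TTTGGCGC, TTTCCCGC and TTTGCCGC, on either strand.
Cdk1: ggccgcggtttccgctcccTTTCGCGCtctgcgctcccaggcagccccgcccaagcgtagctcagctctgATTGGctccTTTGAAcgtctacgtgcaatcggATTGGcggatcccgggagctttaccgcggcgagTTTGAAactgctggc
Plk1: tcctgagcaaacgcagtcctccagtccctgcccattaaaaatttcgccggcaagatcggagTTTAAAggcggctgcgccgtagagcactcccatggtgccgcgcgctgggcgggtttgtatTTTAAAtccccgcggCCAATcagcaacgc
Mki67: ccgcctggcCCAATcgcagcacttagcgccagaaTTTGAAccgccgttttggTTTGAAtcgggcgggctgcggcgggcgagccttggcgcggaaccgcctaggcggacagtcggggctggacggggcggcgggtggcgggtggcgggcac
Top2a: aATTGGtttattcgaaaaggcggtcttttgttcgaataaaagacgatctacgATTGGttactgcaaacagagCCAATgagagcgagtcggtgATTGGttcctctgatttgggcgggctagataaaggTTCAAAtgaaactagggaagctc
Mcm6: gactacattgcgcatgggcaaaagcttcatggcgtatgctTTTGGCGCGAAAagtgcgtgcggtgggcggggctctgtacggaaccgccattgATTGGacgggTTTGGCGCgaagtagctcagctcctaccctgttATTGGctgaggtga
Cdc6: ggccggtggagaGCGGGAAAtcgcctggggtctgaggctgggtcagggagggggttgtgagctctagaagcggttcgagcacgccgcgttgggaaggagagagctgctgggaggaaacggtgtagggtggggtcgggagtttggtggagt
The windows lie at chr10:69352913-69353062 (minus strand) for Cdk1, chr7:122159285-122159434 (plus) for Plk1, chr7:135716380-135716529 (minus) for Mki67, chr11:99024190-99024339 (minus) for Top2a, chr1:128359706-128359855 (minus) for Mcm6 and chr11:98908001-98908150 (plus) for Cdc6.

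In these windows Cdk1 holds 1 E2F word, a CCAAT box on the opposite strand at 80 and at 48 bases before the start, and a TTTGAA at 71 and at 15 bases. Top2a holds 4 CCAAT boxes and 1 CHR word. In Mcm6 2 of the 3 E2F words overlap each other, and no word of 1 kind overlaps a word of another kind in the 6 windows. Over the full 300 bases of the table (250 before and 50 after the start), 72 of the 82 genes matched, with 80 promoters. Of these 80, 16.2% held an E2F word, against 2.26% of all 32851 promoters, 41.2% a CHR word, against 27.6%, and 57.5% a CCAAT box, against 37.4%. A word is a match of letters, and a promoter without one says nothing about the factor.

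Differences between the arrays were set beside these words. The 31 genes with a CHR word had a median difference of 0.07 and 21 higher, and the 41 genes without one -0.04 and 15 higher. The 13 genes with an E2F word had a median of -0.04 and 4 higher, and the 59 without one 0.03 and 32 higher. The 21 genes with both a CCAAT box and a CHR word, among them Cdk1, Plk1, Mki67 and Top2a, had a median of 0.10 and 14 higher. These genes overlap with the cycling core, so the split is not a separate observation.

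Genes of the same pathway that carry other names were listed apart, with earlier results of these data known. Of 35 further genes of mitosis and cytokinesis 22 were higher, where 45.1% of all genes were. Their median was 0.07, and none passed 1.5-fold. At 1.2-fold 4 were higher and 1 lower, where 11.8% and 13.9% of all genes were. Of the 35 genes, 22 were dim, and 7 lay at or below the medians of the intron rows in both arrays. Nusap1, a spindle protein, read 7.49 and 7.91, 1.34-fold higher. Kif11, the spindle motor, read 7.37 and 7.72, Hmmr 5.52 and 5.86, near the background, and Ncaph, a condensin subunit, 7.10 and 7.40. Ect2, which starts cytokinesis, went the other way at 8.19 and 7.91.

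Of 31 further genes of DNA synthesis 13 were higher, where 45.1% of all genes were. Their median was -0.04. At 1.2-fold 4 were higher and 4 lower, where 11.8% and 13.9% of all genes were. Tyms, thymidylate synthase, passed 1.5-fold as an average of its rows (1.58-fold higher), but its rows parted. The row of 7 probes that is marked as cross-hybridising read 8.83 and 10.18, and the specific row of 13 probes 7.84 and 7.79. Rfc4, a clamp loader subunit, read 8.22 and 8.77, 1.46-fold higher, and Clspn, a checkpoint adaptor, 6.17 and 6.53. Gmnn, the inhibitor of licensing, read 6.85 and 6.40, and Gins1, a helicase cofactor, 5.90 and 5.55. Clspn and Gins1 lay near the background in both arrays. Of the 31 genes, 16 were dim, and 5 lay at or below the medians of the intron rows in both arrays.

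Of 21 further regulators 10 were higher, with a median of -0.01. Rb1, the retinoblastoma protein that restrains E2F, differed by 0.33 as an average of 3 rows that differed by 0.58, 0.22 and 0.19. Mybl2, an activator of mitotic genes, read 7.21 and 7.49. Gadd45a, a target of p53, read 8.29 and 7.92, Tfdp2, an E2F partner, 9.98 and 9.63, and Chek1, the checkpoint kinase, 6.56 and 6.28. In the array's own annotation, 439 genes carry the Gene Ontology term for the cell cycle, 52 of the 82 among them. Of the other 387, 155 were higher, with a median of -0.03, 2 were at least 1.5-fold higher and 1 was lower by as much. Genes outside the 82 that carry the term for mitosis numbered 164. Of these 71 were higher, with a median of -0.04, and at 1.2-fold 6 were higher and 18 lower. That median lay on the other side of 0 from the median of the 35 listed genes. Of 212 such genes with the term for cell division 89 were higher, with a median of -0.03. At 1.2-fold 9 were higher and 27 lower. Over all genes 45.1% were higher, 11.8% at least 1.2-fold higher and 13.9% at least 1.2-fold lower. At 1.5-fold 2.07% of all genes were higher and 1.2% lower. In neither the mitosis nor the cell division list did the share lower at 1.2-fold exceed that of all genes.

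**Figure D4:**
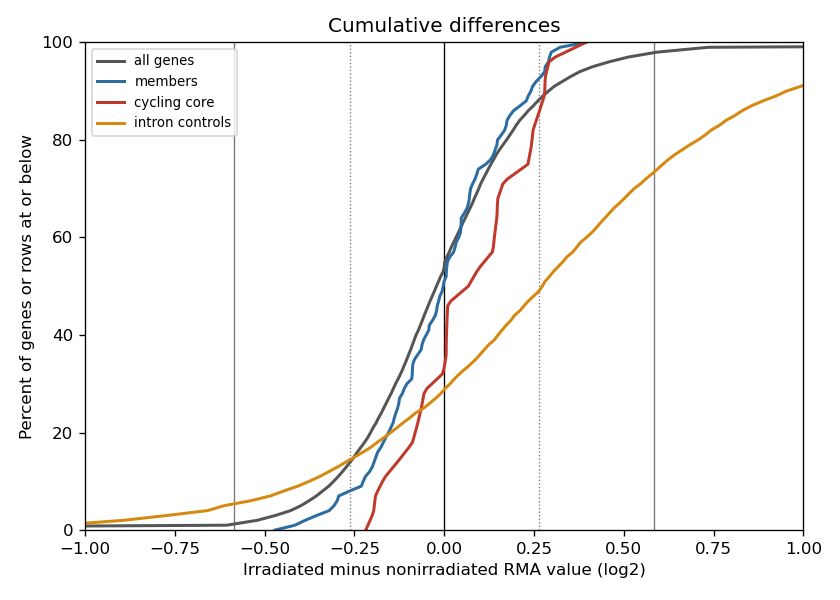
Percent of genes or rows (y axis) at or below a given difference (x axis, irradiated minus nonirradiated, log2), for all genes, the 82 members, the cycling core and the intron control rows. The members run close to all genes and end at 0.39, the core lies to their right with a median of 0.07, and the intron rows lie farther right with a median of 0.27.

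Some other measurements moved in the same direction as the cycling core, and some in the other. Of 5331 intron control rows 71.1% were higher in the irradiated array, with a median difference of 0.27, and 1352 exon control rows had a median of -0.08. Poly-A spike, ERCC and bacterial hybridisation control rows had medians of -0.16, -0.07 and 0.04. At mean values from 7 to 8, where 15 core genes lie, the intron rows had a median of 0.28, all genes of that range -0.04 and the core genes 0.07. Over all genes 45.1% were higher. Among the markers of cell types that divide, 15 of 18 markers of erythroblasts and bone marrow progenitors were higher. Their mean value was 7.02 nonirradiated and 7.42 irradiated. In that list Ngp of immature neutrophils read 6.28 and 8.28, while Klf1, Gata1, Epb4.2, Camp, Car1 and Rhag, among others, lay at or below the intron medians in both arrays. Of 11 markers of T and NK cells 10 were higher, with means of 8.18 and 8.45. Icos read 7.45 and 8.05 and Prf1 8.19 and 8.66, with Klrb1c near the background. Of 11 markers of germinal centre B cells and plasma cells 8 were higher, with means of 9.16 and 9.25. The part of these cells, and of the shift in intron rows, in the values of the cycling core was not tested.

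Thymocyte markers had means of 7.65 and 7.70, with 4 of 10 higher, where 45.1% of all genes were. Rag2 and Dntt lay near the background in both arrays. The 12 adipocyte markers were all higher, with means of 7.76 and 9.07, and 11 of 12 heart muscle markers were, with means of 8.39 and 9.23. Alveolar macrophage markers, which belong to cells that renew themselves in the lung, had means of 9.33 and 9.19, with 3 of 10 higher. The 9 lung markers, surfactant genes and Scgb1a1 among them, were present in both arrays, with means of 12.27 and 12.09 and 2 higher. The part of these cell types in the values of the 82 genes was not tested.

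**Figure D5:**
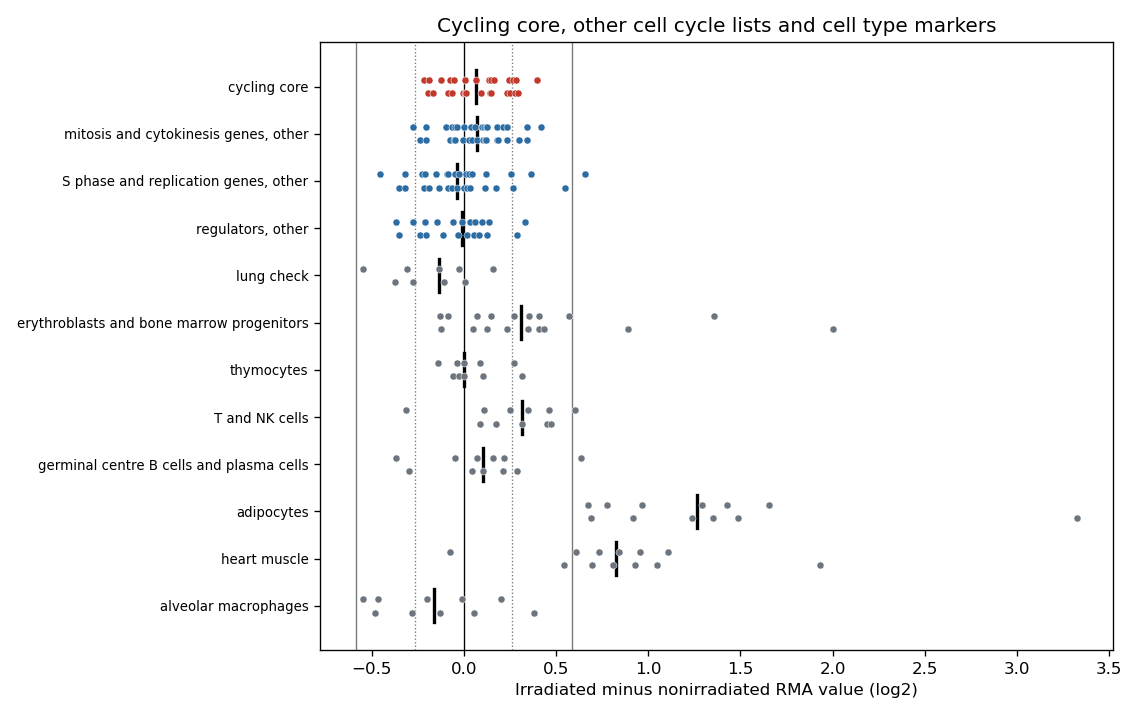
Difference of each gene (x axis, irradiated minus nonirradiated, log2) in the cycling core (red), in 3 lists of other cell cycle genes (blue) and in 8 lists of cell type markers (grey). Black bars are medians, dotted lines mark 1.2-fold and solid grey lines 1.5-fold. The cell cycle lists centre between -0.04 and 0.07, whereas the adipocyte list centres at 1.27 and the heart muscle list at 0.82.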

How the data were processed

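Per the labels' protocols, lung RNA was isolated with Trizol and 300 ng of it was converted to biotinylated cDNA for Affymetrix arrays. Per the submitters' processing notes, RMA in Affymetrix Expression Console 1.3.1 gave the deposited log2 values. RMA places both arrays on a common distribution, so a shift shared by most genes is not visible. A log2 ratio and an unsigned fold (a ratio of at least 1) were deposited by the authors beside them. In the authors' deposited table the log2 ratio equalled the difference used here on all 85 rows, and none of these rows reached 1.5-fold. Coordinates are GRCm38, as the deposited annotation cites.

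Of 41345 rows, 33793 are of the main category. Rows of 1 symbol were averaged, and differences are irradiated minus nonirradiated. Each group has 1 array and no p-value was computed. The members and lists were chosen with earlier results of these data known. Genes named were the 12 members with the largest absolute difference, up to 4 of each role, a fixed set of regulators, up to 5 of each pathway list and up to 3 of each marker list. Other members named to complete a family were chosen after their values were seen, as were Klf1, Gata1 and the other markers near the background. Some genes that the marker rule names are not reported here. Promoter sequences are from RefSeq (GRCm38.p6). Alternatives were median centring, a lowess trend (span 0.3), 1 row per gene, cross-hybridising rows, a minimum of 10 probes, brightness, membership and a limit of 1.2-fold. The summaries were tested on simulated data. Python 3.11.15, pandas 2.3.3 and statsmodels 0.14.6 were used.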

Additional observations from a re-analysis of the deposited data

How the results depend on the processing

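No paired analysis was possible because each group has 1 array. No gene of the 82 passed 1.5-fold, higher or lower, under any of the 10 alternatives of normalisation, row choice, filter and membership. With the limit at 1.2-fold, 7 were higher and 7 lower. The number higher ran from 30 (of 60 genes with a mean value at or above the median) to 45 (of 82 after median centring), and the median difference from -0.003 to 0.03, so its sign is not settled. The median of the cycling core ran from 0.07 to 0.10, that of the further mitosis genes from 0.07 to 0.12, and that of the further genes of DNA synthesis from -0.04 to 0.00. The difference of Tyms was -0.045 without cross-hybridising rows and -0.045 without rows under 10 probes, and 1.36 with its brightest row, since these settings keep 1 row of the gene. With the brightest row Cdc42 differed by -0.04. Over 92 named genes, 687 of 691 recomputed differences moved from the reported value by less than the SD between rows of a symbol. The other 4 were these of Tyms and Cdc42. Row choice and filters leave a gene with 1 row unchanged or drop it, and 79 of the 82 have 1 row. Median centring moves every gene by only 0.02. The count was thus largely fixed by the settings and does not measure stability. The sign of Ccne2 and Cdc25a also changed under at least 1 alternative, both with differences within 0.1. Signal near the background limits the dim genes, and with 1 array per group no difference can be set against variation between mice.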
